A study of Mus musculus with 24 samples.

Results

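The granule cells of the dentate gyrus are marked by a set of 10 genes, Prox1, Dsp, Tdo2, Lct, Trpc6, Stxbp6, Plk5, Glis3, Rfx3 and Calb1, which were followed gene by gene in the hippocampal RNA of CBP-ifKOs and control littermates kept in standard cages (SC) or in an enriched environment (EE). They were chosen by name, as rows of the count table whose gene identifier belongs to them, and make up 10 of the 55471 genes of that table. The choice was made with earlier results of these data known. The number of members called, set beside the share of all genes, is therefore not an independent result. All 10 were detected in all 12 mice, with between 231 and 5124 counts per library in control mice and between 136 and 7328 in CBP-ifKOs, whose deposited counts may be 2 times the number of reads, and all 10 passed the filter on low counts in every comparison. The mice were females labelled as C57BL/6, a C57BL/6J background according to the methods of the study, 3 to 6 months old, with 3 mice in each of 4 groups (Control_SC, CBP-ifKO_SC, Control_EE and CBP-ifKO_EE). CBP, the product of Crebbp, is a lysine acetyltransferase that serves transcription factors as a coactivator. CBP-ifKOs carried floxed Crebbp alleles and CaMKIIα-creERT2, a transgene whose promoter drives a tamoxifen-dependent Cre recombinase in excitatory neurons of the forebrain, so other hippocampal cells keep the gene, and a truncated CBP that lacks acetyltransferase activity is still made. The control littermates lacked creERT2 and received the same 5 tamoxifen administrations. EE was a large box with running wheels, tubing and toys. Each library came from the hippocampus of 1 mouse, so the granule cells were measured together with all other cells of the tissue, and fewer cells of a type and less RNA per cell cannot be told apart in these values.

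Granule cells are the principal neurons of the dentate gyrus, the entry point of cortical input to the hippocampus. Their axons, the mossy fibers, contact mossy cells of the hilus and pyramidal cells of CA3, and new granule cells are added throughout adult life in the mouse. The homeodomain transcription factor Prox1 is needed to establish and keep their identity, and calbindin (Calb1) marks the mature cells. Several of the other genes, among them the enzymes Tdo2 and Lct and the desmosomal protein Dsp, are known in the brain mainly as granule cell markers and in the body for their roles in liver, gut and skin. Some members are less selective. Calb1 is also made by CA1 pyramidal cells and interneurons, and Rfx3 by ciliated cells.

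To show the regulatory sequence next to the start of genes that moved and of one that did not, the 250 bases before the RefSeq transcription start are printed for 4 members, namely Trpc6 and Plk5, which fell in both housing conditions, Lct, which rose in SC, and Prox1, which passed the test in neither. They are given 5′ to 3′ on the strand of the gene and come from the RefSeq promoter windows of GRCm38.p6, and none of these 4 stretches overlaps an annotated exon. Capitals mark the motif matches described after them.
Trpc6 (chr9:8543892-8544141, plus strand): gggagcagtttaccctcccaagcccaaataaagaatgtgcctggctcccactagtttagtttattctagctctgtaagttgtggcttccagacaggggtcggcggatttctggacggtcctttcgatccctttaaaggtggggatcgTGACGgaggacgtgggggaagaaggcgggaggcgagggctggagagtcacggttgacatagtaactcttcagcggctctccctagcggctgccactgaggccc
Plk5 (chr10:80356209-80356458, plus strand): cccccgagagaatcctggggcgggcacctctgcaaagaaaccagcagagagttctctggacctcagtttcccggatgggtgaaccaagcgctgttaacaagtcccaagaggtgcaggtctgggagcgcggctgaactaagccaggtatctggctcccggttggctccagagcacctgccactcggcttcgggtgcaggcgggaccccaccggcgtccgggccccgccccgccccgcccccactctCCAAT
Lct (chr1:128328319-128328568, minus strand): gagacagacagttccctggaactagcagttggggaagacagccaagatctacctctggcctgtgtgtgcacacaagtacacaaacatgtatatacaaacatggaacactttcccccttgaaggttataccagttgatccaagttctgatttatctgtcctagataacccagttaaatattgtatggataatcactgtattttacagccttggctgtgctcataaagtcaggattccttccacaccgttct
Prox1 (chr1:190170828-190171077, minus strand): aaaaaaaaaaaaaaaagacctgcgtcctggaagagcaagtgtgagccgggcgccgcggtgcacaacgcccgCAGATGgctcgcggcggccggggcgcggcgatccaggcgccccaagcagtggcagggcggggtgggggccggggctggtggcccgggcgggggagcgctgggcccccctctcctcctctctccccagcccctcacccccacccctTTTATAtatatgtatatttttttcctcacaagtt

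The stretches differ in base composition. That of Lct held 42.8% G and C and 1 CpG, that of Trpc6 56.4% and 12 CpGs, that of Plk5 65.6% and 16 CpGs, and that of Prox1 64.8% and 20 CpGs. RefSeq windows from 250 bases before to 50 bases after the start were matched for 9 of the 10 members, with 2 windows for Prox1, and were searched on both strands. TGACGTCA, the full cAMP response element that CREB binds, was in 0 of the 10 member windows and in 1.79% of all 32851 windows. TGACG, which is contained in the full element, was in 1 member window, that of Trpc6 at position -103, and in 20.8% of all windows. TGANTCA, the AP-1 motif, was found in 1 window, that of Rfx3 at position 41 after the start, against 7.81% of all. CAGATG, an E-box read by neurogenic factors such as NeuroD1, was found in 1 window, that of Prox1 at -179, against 17.2%. CCAAT was in 3 member windows (Prox1, Tdo2 and Plk5) and in 37.4% of all, and TATAAA in 2 (Prox1 and Tdo2) and in 13.6% of all. These matches describe the letters of the windows, and with so few members no share can be set apart from that of all windows.

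Control libraries held between 26874015 and 27971488 counts and CBP-ifKO libraries between 28582210 and 37448388, and none of the CBP-ifKO counts was odd. Reads of the CBP-ifKO libraries may therefore have been counted 2 times, so that their printed counts and totals may exceed the reads behind them. With these counts divided by 2, the number of members called was the same in every comparison, at 4 for genotype in SC, 5 in EE and 6 averaged. Levels are given as CPM, that is the counts of a gene scaled to a common library size after TMM normalization, a unit that covers depth but not gene length. Crebbp, the targeted gene, was at 75.5 ± 5.78 CPM (SD, n = 3) in Control_SC and 50.7 ± 0.796 (SD, n = 3) in CBP-ifKO_SC, and at 73.0 ± 3.795 in Control_EE and 46.5 ± 1.89 in CBP-ifKO_EE (SD, n = 3 each). Its related coactivator Ep300 did not pass the test in SC (log2 fold change 0.18, adjusted p = 0.394, edgeR's quasi-likelihood test) or in EE (0.07, adjusted p = 0.775). Without mouse 2 of Control_SC, Ep300 was called higher in SC (0.36, adjusted p = 0.00593, edgeR's quasi-likelihood test). One library stood apart. Mouse 1 of Control_EE held 1243 CPM summed over 5 choroid plexus markers, against between 34.8 and 62.1 CPM in the other 11 mice, with Ttr at 1129 CPM. The labels do not name litters or dissection dates, so p-values measure the spread between these mice.

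Levels can be compared between genes only per length, as RPKM (CPM per kilobase of the gene's exons). In Control_SC the highest level was that of Calb1, at 35.9 ± 3.16 RPKM (SD, n = 3), followed by Stxbp6, a syntaxin-binding protein of membrane fusion, at 25.2 ± 0.362. Prox1 was at 12.3 ± 0.398 RPKM, Rfx3 at 11.4 ± 0.588 and Plk5 at 10.4 ± 1.63. The lower levels were those of Trpc6 (6.91 ± 0.613 RPKM), Lct (6.15 ± 0.967), Dsp (4.10 ± 0.338), Glis3 (3.47 ± 0.332) and Tdo2 (2.86 ± 0.326). Neighbors in this order whose mice overlapped were Rfx3 and Plk5, Trpc6 and Lct, and Dsp and Glis3, and all other neighbors were separated in every mouse of the group. In CBP-ifKO_SC the 4 highest and the 2 lowest ranks were held by the same genes. In between, Lct stood at rank 5, Plk5 at 6, Dsp at 7 and Trpc6 at 8, against ranks 7, 5, 8 and 6 in Control_SC.

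**Figure D1:**
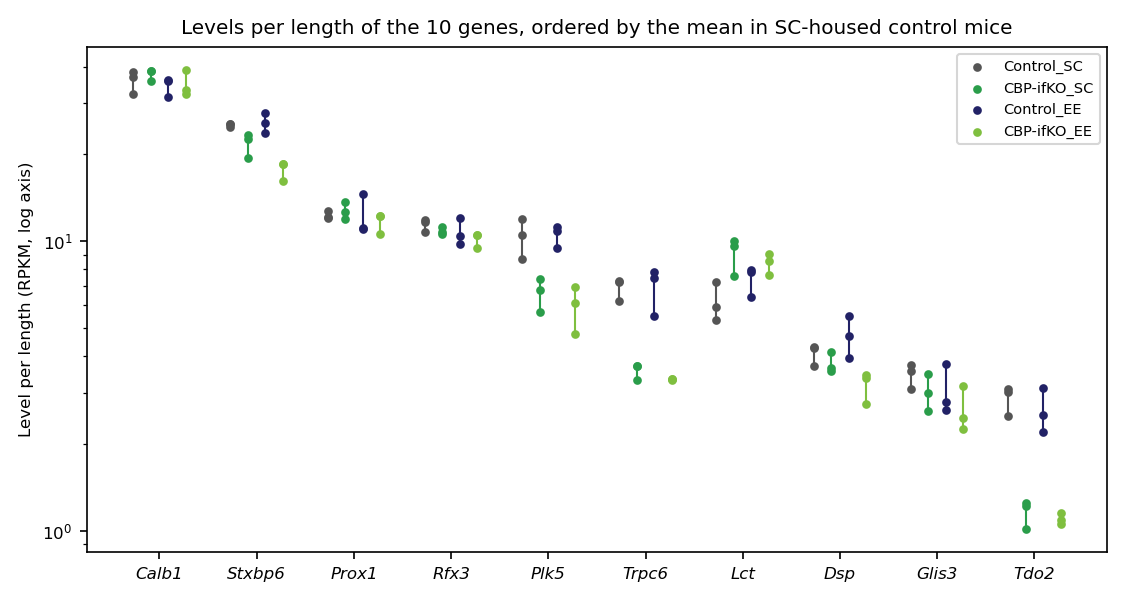
Level per length (RPKM, log axis) of the 10 genes, ordered by the mean of SC-housed control mice. Points are single mice and lines span the 3 mice of a group. Calb1 stood highest in all 4 groups and Tdo2 lowest, with Tdo2 between 1.01 and 3.12 RPKM over the 12 mice.

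Genotype was the comparison in which the members moved, and they moved unevenly. In SC-housed mice, Tdo2, Trpc6 and Plk5 fell in CBP-ifKOs to between 1.57-fold and 2.48-fold lower levels, Lct rose 1.48-fold, and the remaining 6 members did not pass the test. In EE-housed mice the same 3 genes fell, together with Dsp and Stxbp6, and no member rose. Prox1, Glis3, Rfx3 and Calb1 passed the test in neither housing condition. Of all 17532 genes tested in SC, 1.51% were called higher and 4.02% lower in CBP-ifKOs at an adjusted p of 0.05 (edgeR's quasi-likelihood test with Benjamini-Hochberg adjustment), beside 1 and 3 of the 10 members. Of all 17625 genes tested in EE, 1.03% were called higher and 3.53% lower, beside 0 and 5 members. These shares depended on single mice. When 1 mouse was left out, the number of all genes called ran from 399 to 1908 in SC, against 264 called higher and 704 lower with all mice, and each of the 6 mice moved it by over 1.5 times. In EE it ran from 285 to 1016, against 182 higher and 623 lower with all mice, and it fell by over 1.5 times without mouse 3 of Control_EE or any 1 mouse of CBP-ifKO_EE. The median log2 fold change of the members was -0.16 in SC and -0.37 in EE, against -0.0019 and 0.01 over all genes tested. With the groups compared mouse by mouse, 1 member was higher without overlap and 4 were lower in the SC-housed CBP-ifKOs, beside 12.1% and 13.8% of all genes. In EE 0 were higher and 5 lower, beside 11.4% and 13.9%.

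The transcription factors of the list differed by less than the test could call. Prox1 was at 107, 101 and 101 CPM in Control_SC and at 106, 115 and 101 in CBP-ifKO_SC. In EE it was at 92.4, 122 and 93.2 CPM in control mice and at 88.7, 103 and 103 in CBP-ifKOs. The ranges of the genotypes overlapped in both housings. Its log2 fold change was 0.05 in SC (95% interval -0.08 to 0.18, adjusted p = 0.690 in edgeR's quasi-likelihood test) and -0.06 in EE (-0.28 to 0.17, adjusted p = 0.811). Prox1 shares 133 exonic bases with Prox1os on the opposite strand, which was at 6.51 ± 0.605 CPM in Control_SC (SD, n = 3), and whether the counting used strand is not stated.

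Rfx3, a factor of the regulatory factor X family that controls genes of cilia, was at 118, 129 and 130.5 CPM in Control_SC and at 117, 119 and 124 in CBP-ifKO_SC. It was at 108, 133 and 115 CPM in Control_EE and at 116, 104 and 116 in CBP-ifKO_EE. These ranges overlap, and the log2 fold changes were -0.07 in both housing conditions (95% intervals -0.20 to 0.05 in SC and -0.25 to 0.11 in EE). Glis3, a zinc finger factor of the Gli-similar family, was at 27.4, 33.1 and 31.4 CPM in Control_SC and at 30.7, 26.4 and 23.0 in CBP-ifKO_SC. In EE it was at 23.1, 33.2 and 24.6 CPM in control mice and at 21.8, 27.9 and 19.8 in CBP-ifKOs. The groups overlap again. The intervals of Glis3 were wider than those of Prox1 and Rfx3, with a log2 fold change of -0.20 in SC (-0.43 to 0.03, adjusted p = 0.314 in edgeR's quasi-likelihood test) and -0.21 in EE (-0.53 to 0.11, adjusted p = 0.474).

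Among the genes of calcium handling, one fell in each housing condition and the other did not pass the test. Calb1, the cytosolic calcium buffer, was at 179, 157 and 186 CPM in Control_SC and at 188, 188 and 173 in CBP-ifKO_SC. It was at 153, 175 and 174 CPM in Control_EE and at 189, 161 and 156 in CBP-ifKO_EE. No order of the genotypes is visible in these values. Its log2 fold change was 0.07 in SC (95% interval -0.07 to 0.22) and 0.03 in EE (-0.16 to 0.21). Trpc6, a cation channel that diacylglycerol opens and that admits calcium, was at 36.9, 36.8 and 31.4 CPM in Control_SC and at 18.7, 18.8 and 16.8 in CBP-ifKO_SC. It was at 28.0, 37.7 and 39.7 CPM in Control_EE and at 16.9, 17.0 and 16.8 in CBP-ifKO_EE. Every CBP-ifKO was below every control mouse, with a gap from 18.8 to 28.0 CPM across both housings. The log2 fold change of Trpc6 was -0.95 in SC (SE 0.08, adjusted p = 1.26e-04 in edgeR's quasi-likelihood test) and -1.04 in EE (SE 0.12, adjusted p = 7.94e-04), a 1.93-fold and a 2.06-fold lower level.

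The enzymes and the member of the polo-like kinase family moved in both directions. Tdo2, tryptophan 2,3-dioxygenase, which opens the kynurenine pathway of tryptophan breakdown, was at 9.65, 11.9 and 11.7 CPM in Control_SC and at 4.84, 4.71 and 3.92 in CBP-ifKO_SC. In EE it was at 8.49, 9.77 and 12.1 CPM in control mice and at 4.08, 4.48 and 4.23 in CBP-ifKOs. All 6 CBP-ifKOs were below all 6 control mice. Its log2 fold change of -1.31 in SC (SE 0.13, adjusted p = 3.21e-04 in edgeR's quasi-likelihood test) was the lowest among the members, and it was -1.24 in EE (SE 0.15, adjusted p = 0.00133). Plk5, a brain-expressed member of the polo-like kinase family, was at 31.9, 23.2 and 28.2 CPM in Control_SC and at 19.8, 18.2 and 15.2 in CBP-ifKO_SC. It was at 29.1, 25.4 and 30.0 CPM in Control_EE and at 12.8, 18.7 and 16.4 in CBP-ifKO_EE. The genotypes were again separate in every mouse. Plk5 changed by -0.65 in SC (SE 0.12, adjusted p = 0.0106, edgeR's quasi-likelihood test) and by -0.81 in EE (SE 0.13, adjusted p = 0.00495) on the log2 scale. Without mouse 3 of CBP-ifKO_SC, its adjusted p in SC was 0.0503.

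Lct, lactase, the brush border enzyme that splits lactose in the gut, was the one member that rose. It was at 46.2, 37.9 and 34.1 CPM in Control_SC and at 64.3, 61.7 and 48.5 in CBP-ifKO_SC, so that the lowest CBP-ifKO was just above the highest control mouse. In EE it was at 41.3, 51.0 and 50.3 CPM in control mice and at 49.0, 57.7 and 54.8 in CBP-ifKOs, where the groups overlap. The log2 fold change was 0.56 in SC (SE 0.12, adjusted p = 0.0195 in edgeR's quasi-likelihood test) and 0.19 in EE (SE 0.09, adjusted p = 0.281). The call in SC depended on single mice, with an adjusted p of 0.0611 without mouse 3 of Control_SC, 0.0896 without mouse 1 of CBP-ifKO_SC and 0.0848 without mouse 2 of CBP-ifKO_SC.

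The genes of junctions and of membrane fusion were called in EE alone. Dsp, desmoplakin, which ties desmosomes to intermediate filaments, was at 35.8, 41.6 and 41.3 CPM in Control_SC and at 34.4, 39.9 and 35.3 in CBP-ifKO_SC. It was at 38.1, 53.2 and 45.4 CPM in Control_EE and at 26.5, 33.2 and 32.5 in CBP-ifKO_EE. The genotypes overlap in SC and are separate in EE. Its log2 fold change was -0.12 in SC (SE 0.08, adjusted p = 0.459 in edgeR's quasi-likelihood test) and -0.56 in EE (SE 0.12, adjusted p = 0.0224). The call in EE was lost without mouse 3 of Control_EE (adjusted p = 0.0796 in edgeR's quasi-likelihood test), and without mouse 1, 2 or 3 of CBP-ifKO_EE (0.0786, 0.0544 and 0.0775). Dsp shares 499 exonic bases with Gm10129 on the opposite strand, which had at most 2 counts in a library.

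Stxbp6 was at 135, 134 and 131 CPM in Control_SC and at 123, 119 and 102 in CBP-ifKO_SC. In EE it was at 125, 147 and 135 CPM in control mice and at 85.8, 98.2 and 97.8 in CBP-ifKOs. All CBP-ifKOs were below all control mice in both housing conditions, though the gap was small in SC. The log2 fold change was -0.22 in SC (SE 0.07, adjusted p = 0.0939 in edgeR's quasi-likelihood test) and -0.53 in EE (SE 0.08, adjusted p = 0.00343). The value in SC was past the threshold with DESeq2 (adjusted p = 0.0419) and without the filter on low counts (adjusted p = 0.0183).

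**Figure D2:**
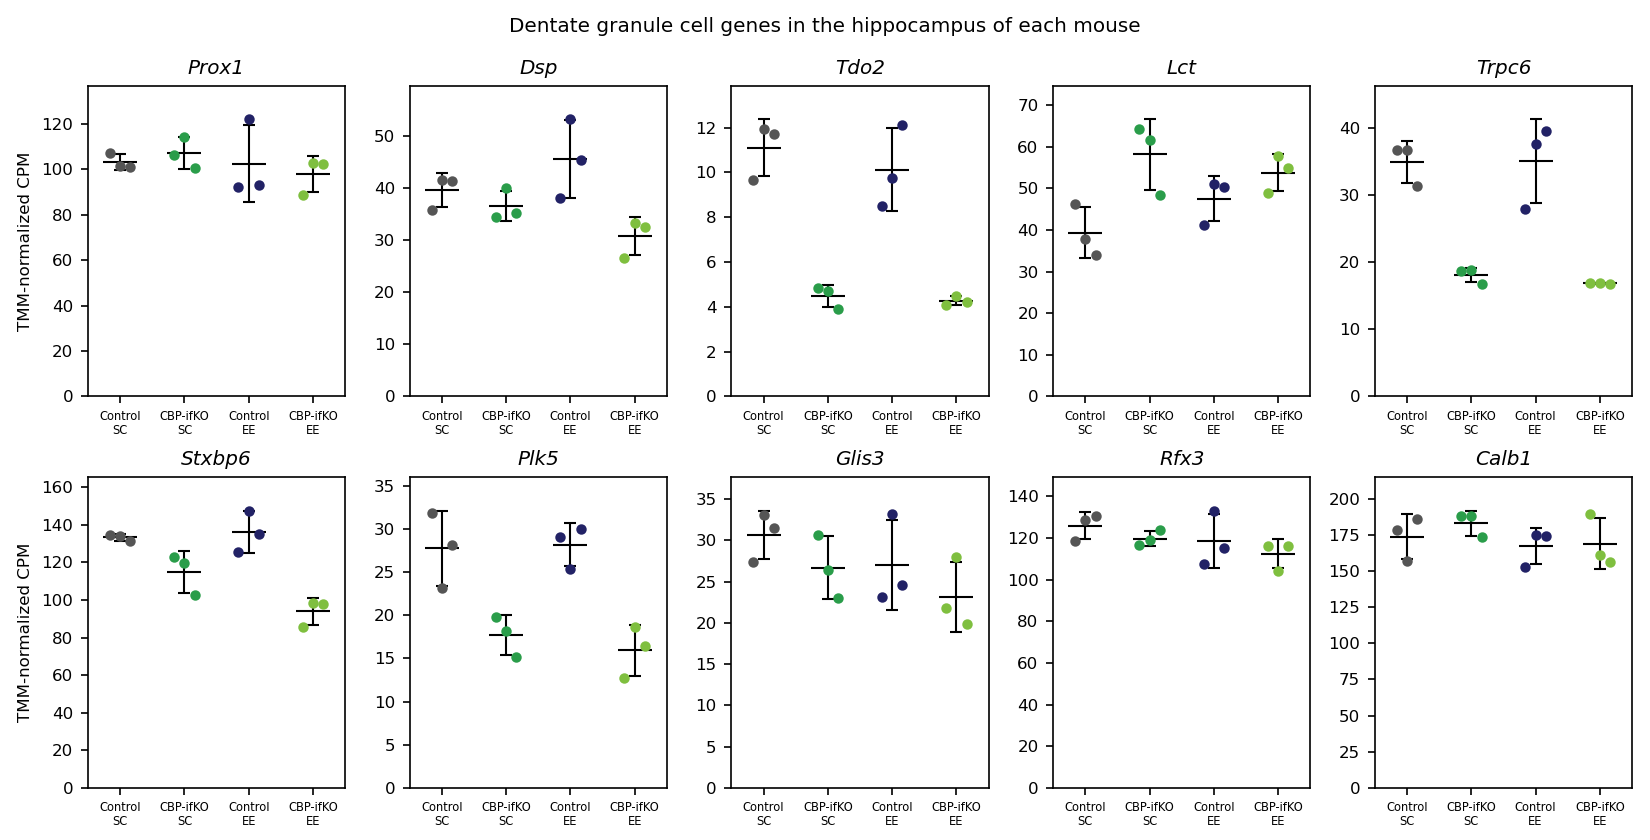
Normalized level (TMM-scaled CPM, axis from 0) of each of the 10 genes in each mouse, with the 4 groups side by side. Points are mice, bars the group mean and SD (n = 3). In Tdo2, Trpc6 and Plk5 all 6 CBP-ifKOs sit below all 6 control mice, while in Prox1, Rfx3 and Calb1 the genotypes overlap within each housing condition.

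When the genotype difference was averaged over both housing conditions in the fit of all 12 mice, 6 of the 10 members were called. Lct was higher in CBP-ifKOs (log2 fold change 0.37, adjusted p = 0.00664, edgeR's quasi-likelihood test). The members called lower were Tdo2 (-1.28), Trpc6 (-1.002), Plk5 (-0.74), Stxbp6 (-0.38) and Dsp (-0.34), the last with an adjusted p of 0.00761. In this fit 6.64% of the 18251 genes tested were called higher and 10.3% lower, and the median of the members was -0.28 on the log2 scale. Each of the 6 calls held when any 1 mouse was left out. The changes of the 4 members not called were -0.01 for Prox1 (95% interval -0.15 to 0.13), -0.21 for Glis3 (-0.43 to 0.0085), -0.08 for Rfx3 (-0.19 to 0.04) and 0.05 for Calb1 (-0.08 to 0.17). Glis3 was past the threshold without the filter on low counts (adjusted p = 0.00436, edgeR's quasi-likelihood test).

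A second list of 9 granule cell genes, C1ql2, Pdyn, Dock10, Npnt, Sipa1l2, Lrrtm4, Sema5a, Neurod1 and Bcl11b, was read in the same fits. In SC 2 of these fell and 1 rose in CBP-ifKOs, beside 4.02% and 1.51% of all genes. Those that fell were C1ql2, a C1q-like synaptic organizer secreted at mossy fiber terminals (-1.60), and Pdyn, the precursor of the dynorphin peptides (-1.42), and the one that rose was Npnt, an extracellular matrix ligand of integrins (0.47), all as log2 fold changes. The paper names C1ql2 and dynorphin among the genes reduced in CBP-ifKOs, from screens that included the SC-housed mice of this experiment. Their fall in SC is therefore not an independent result. In EE 4 genes of the second list fell and none rose, beside 3.53% and 1.03% of all genes. C1ql2 changed by -1.91, Pdyn by -1.46, the guidance receptor ligand Sema5a by -0.50 and the transcription factor Bcl11b by -0.33 on the log2 scale. Averaged over housing these 4 were called lower and Npnt higher, beside 10.3% and 6.64% of all genes. The call of Sema5a in EE was lost without mouse 2 or 3 of Control_EE or without any mouse of CBP-ifKO_EE, with adjusted p values between 0.0584 and 0.123 (edgeR's quasi-likelihood test), and that of Bcl11b without any mouse of CBP-ifKO_EE, with adjusted p from 0.0669 to 0.100. Npnt in EE (log2 fold change 0.28, adjusted p = 0.0655, edgeR's quasi-likelihood test) was past the threshold with DESeq2 (0.0494), without the filter on low counts (0.0386) and without mouse 1 of CBP-ifKO_EE (0.0404). Sema5a in SC (-0.19, adjusted p = 0.0734) was past it with DESeq2 (0.0340) and without the filter (0.0364). Neurod1, Dock10, Sipa1l2 and Lrrtm4 passed in neither housing condition, with log2 fold changes between -0.28 and 0.17. Dock10 in EE was past the threshold with DESeq2 (-0.29, adjusted p = 0.0228), and in edgeR's quasi-likelihood test without the filter (-0.30, adjusted p = 0.00145) and without mouse 1 of Control_EE (-0.39, adjusted p = 0.0134).

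C1ql2 had the highest level per length of the second list in Control_SC, at 33.2 ± 3.70 RPKM (SD, n = 3), and Lrrtm4, a postsynaptic adhesion protein, the lowest, at 5.21 ± 0.594. C1ql2 was at 72.7, 58.3 and 68.3 CPM in Control_SC and at 17.8, 22.2 and 25.6 in CBP-ifKO_SC, so that all CBP-ifKOs were below all control mice by a wide margin. Lrrtm4 was at 35.0, 28.0 and 33.1 CPM in Control_SC and at 34.9, 39.2 and 34.2 in CBP-ifKO_SC, which overlap.

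**Figure D3:**
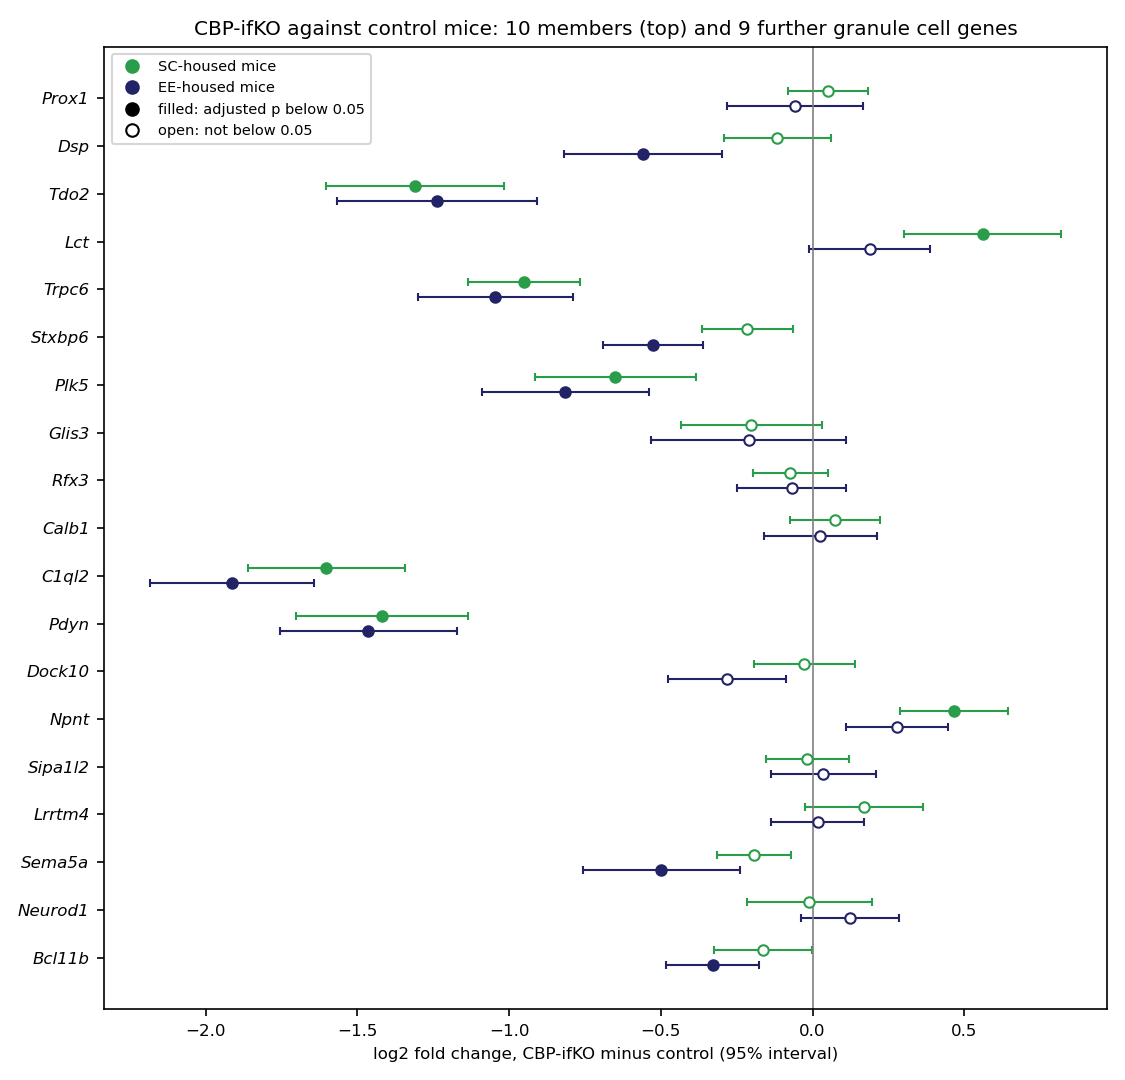
Log2 fold change of CBP-ifKOs against control mice with its 95% interval, for the 10 members and the 9 further granule cell genes, in SC-housed (green) and EE-housed (blue) mice. Filled points passed the adjusted p of 0.05. Values range from -1.91 for C1ql2 in EE to 0.56 for Lct in SC, with Prox1, Rfx3 and Calb1 close to 0.

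Because granule cells are one of several neuron types in these samples, the levels were also set against Prox1 within each library. The mean log2 ratio of Trpc6 to Prox1 was -1.56 ± 0.113 (SD, n = 3) in Control_SC and -2.56 ± 0.0517 in CBP-ifKO_SC. That of Tdo2 was -3.22 ± 0.216 in Control_SC and -4.58 ± 0.115 in CBP-ifKO_SC, and that of Plk5 was -1.91 ± 0.198 and -2.60 ± 0.157. For all 3 genes the CBP-ifKOs and the control mice did not overlap in either housing condition. The ratio of Calb1 to Prox1 was 0.75 ± 0.126 in Control_SC and 0.77 ± 0.0566 in CBP-ifKO_SC, and its groups overlapped. In SC the ratio of Lct to Prox1 went the other way, from -1.40 ± 0.179 to -0.89 ± 0.164, while in EE it was -1.10 ± 0.191 in control mice and -0.86 ± 0.0363 in CBP-ifKOs, with overlap. These ratios describe levels relative to Prox1 and are not levels per granule cell, as each library held all cells of the tissue. They also do not show that Prox1 itself was constant.

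Marker genes of other neurons moved with genotype as well. All 5 CA1 pyramidal markers (Fibcd1, Wfs1, Mpped1, Spink8 and Man1a) were called lower in CBP-ifKOs in both housing conditions, and their summed level was between 714 and 799 CPM in Control_SC and between 543 and 549 in CBP-ifKO_SC. Of 5 pan-neuronal markers, 3 were called lower in SC and 3 in EE, with sums between 6250 and 6390 CPM in Control_SC and between 5584 and 5648 in CBP-ifKO_SC. Of 5 markers each of astrocytes, oligodendrocytes, microglia and endothelial cells, 0 were called in SC or in EE, though some of their sums were lower in CBP-ifKOs without overlap. The microglial sum was between 257 and 261 CPM in Control_SC and between 229 and 252 in CBP-ifKO_SC, and in EE it was between 239 and 265 in control mice and between 224 and 229 in CBP-ifKOs. The endothelial sum was between 208 and 213 CPM in Control_SC and between 177 and 193 in CBP-ifKO_SC, with overlap in EE. The astrocyte sum was between 3368 and 3731 CPM in Control_EE and between 3105 and 3247 in CBP-ifKO_EE, with overlap in SC, and the oligodendrocyte sums overlapped in both housings. Averaged over housing, the astrocyte transporter Slc1a2 (-0.15) and the microglial receptors Cx3cr1 (-0.17) and Csf1r (-0.12) were called lower on the log2 scale. Of 6 interneuron markers, the neuropeptide Sst was called lower in SC (-0.35), and averaged over housing Sst was called lower (-0.33) and Vip higher (0.21). Their sum was lower in CBP-ifKOs without overlap, between 851 and 917 CPM in Control_SC and between 796 and 833 in CBP-ifKO_SC, and between 871 and 947 in Control_EE and between 821 and 855 in CBP-ifKO_EE. Of the choroid plexus markers, Ttr was called lower in SC (-1.70) and averaged over housing (-2.99), an average that includes mouse 1 of Control_EE with its 1129 CPM. Of 6 meningeal markers, the collagen Col1a1 was called higher in EE (0.72), and of 5 markers of thalamus and striatum, Ppp1r1b was called lower in EE (-0.53) and averaged over housing (-0.43). The sum of these 5 was between 42.2 and 46.8 CPM in Control_SC and between 35.5 and 37.7 in CBP-ifKO_SC, and between 44.1 and 56.7 in Control_EE and between 36.1 and 38.0 in CBP-ifKO_EE. In EE the CA1 sum (750 to 812 CPM in control mice and 517 to 552 in CBP-ifKOs) and the pan-neuronal sum (6183 to 6370 and 5520 to 5722) did not overlap either. The part of these other cell types in the changes of the members was not tested.

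Housing was the second question, and no member was called for it. In control mice 0 of the 10 members passed the adjusted threshold for EE against SC, beside 0% of the 18251 genes tested, and 1 had an unadjusted p under 0.05, beside 4.21% of all genes. That one was Lct, with a log2 fold change of 0.27 (95% interval 0.01 to 0.53, unadjusted p = 0.0414, adjusted p = 0.999, edgeR's quasi-likelihood test). The members had 5 point estimates above and 5 below 0, with a median of -0.0030 on the log2 scale, and all 10 overlapped between Control_SC and Control_EE, where 4.20% of all genes were higher and 4.91% lower in EE without overlap. With DESeq2 also 0 members were called. The 95% interval of Trpc6 ran from -0.22 to 0.23 and that of Stxbp6 from -0.14 to 0.19, while that of Tdo2 ran from -0.42 to 0.16.

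In CBP-ifKOs also 0 members passed the adjusted threshold for EE against SC, beside 0.0110% of all genes, and 2 had an unadjusted p under 0.05, beside 8.59%. All 10 point estimates were below 0, with a median of -0.12 against -0.0025 over all genes, and those of the second list were also all below 0. For Stxbp6 the log2 fold change was -0.29 (95% interval -0.46 to -0.13, unadjusted p = 0.00168, adjusted p = 0.354, edgeR's quasi-likelihood test). For Dsp it was -0.25 (-0.49 to -0.01, unadjusted p = 0.0421, adjusted p = 0.561). In 3 members, namely Stxbp6, Dsp and Rfx3, all EE-housed CBP-ifKOs were below all SC-housed ones, and in 0 members above them, beside 8.17% and 7.69% of all genes. The gap was small for Rfx3, whose highest EE-housed CBP-ifKO was at 116 CPM while the lowest SC-housed one was at 117. Without the filter on low counts, 1 member was called, Stxbp6, with an adjusted p of 0.00385. With DESeq2 0 members were called.

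**Figure D4:**
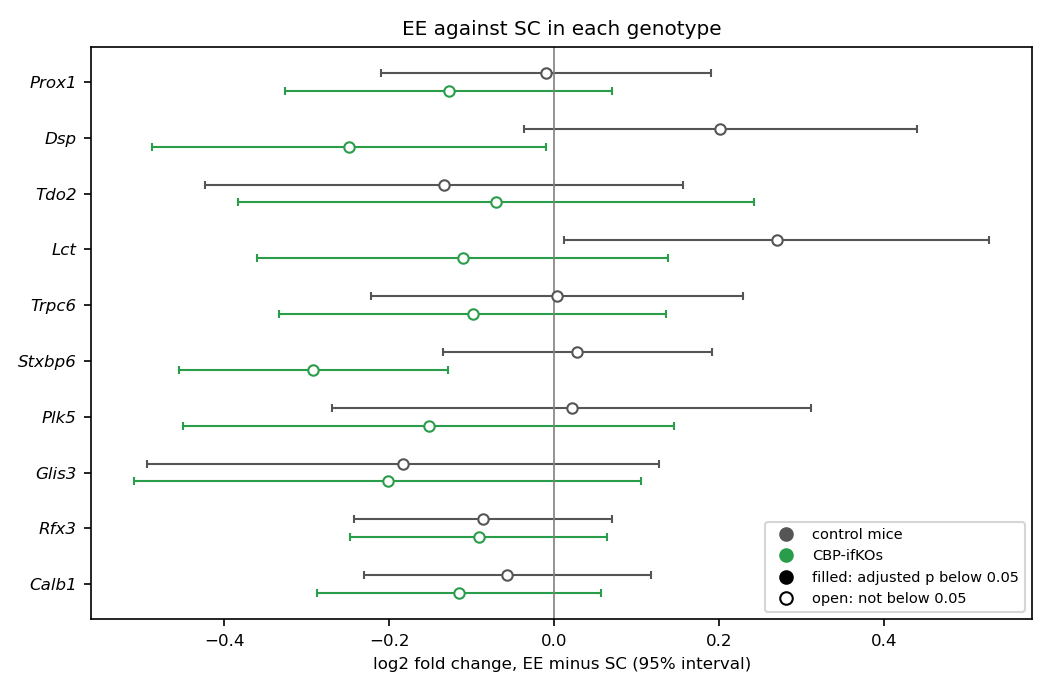
Log2 fold change of EE against SC with its 95% interval in control mice (grey) and in CBP-ifKOs (green) for the 10 genes. All points are open, as no gene passed the adjusted p of 0.05. In CBP-ifKOs all 10 points lie below 0, from -0.29 for Stxbp6 to -0.07 for Tdo2.

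Whether the effect of EE differed between genotypes was tested with the interaction, the change in CBP-ifKOs minus that in control mice. No member was called, beside 0% of the 18251 genes, and 3 members had an unadjusted p under 0.05, beside 3.15% of all genes. These were Dsp (-0.45, 95% interval -0.79 to -0.11, unadjusted p = 0.0122), Stxbp6 (-0.32, -0.55 to -0.09, unadjusted p = 0.00978) and Lct (-0.38, -0.74 to -0.02, unadjusted p = 0.0390), each with an adjusted p of 0.9998 in edgeR's quasi-likelihood test. They are also the members that were called in 1 housing condition and not in the other. The calls of Dsp and Stxbp6 in EE and of Lct in SC therefore do not show that their genotype differences depended on housing. Without the filter on low counts Dsp had an adjusted p of 0.0195 for the interaction and was the only member called. The interaction of Trpc6 was -0.10 (-0.43 to 0.22), that of Tdo2 0.06 (-0.36 to 0.49) and that of Plk5 -0.17 (-0.59 to 0.24). In the joint test of EE and interaction, 0 members were called beside 0.0712% of the genes, and 2, Dsp and Stxbp6, had an unadjusted p under 0.05, beside 6.87% of the genes. DESeq2 also called 0 members for the interaction and in the joint test. Without the filter on low counts, 3 members were called jointly.

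Single mice deviated from their groups across many of the members at once. Mouse 1 of Control_EE had the lowest value of its group in 9 of the 10 members, with a median log2 deviation of -0.18 from the group mean, and it is the mouse with the high choroid plexus markers. Mouse 3 of CBP-ifKO_SC was lowest in 8 members, with a median deviation of -0.14, and mouse 1 of CBP-ifKO_EE in 6, with -0.11. Mouse 2 of Control_EE was highest in 7 members (0.11) and mouse 2 of CBP-ifKO_EE in 8 (0.07). Such counts were not taken over all genes, so a trait of the members and a shift of the whole library were not told apart. Over the second list the medians were -0.05 for mouse 1 of Control_EE, -0.0061 for mouse 3 of CBP-ifKO_SC, -0.09 for mouse 1 of CBP-ifKO_EE and 0.05 for mouse 2 of both EE-housed groups. In the 3 mice of Control_SC the medians were between 0.02 and 0.03 over the members and 0.08, -0.10 and 0.02 over the second list. Without mouse 1 of Control_EE, 5 members were called in the EE-housed genotype comparison, as with it.

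**Figure D5:**
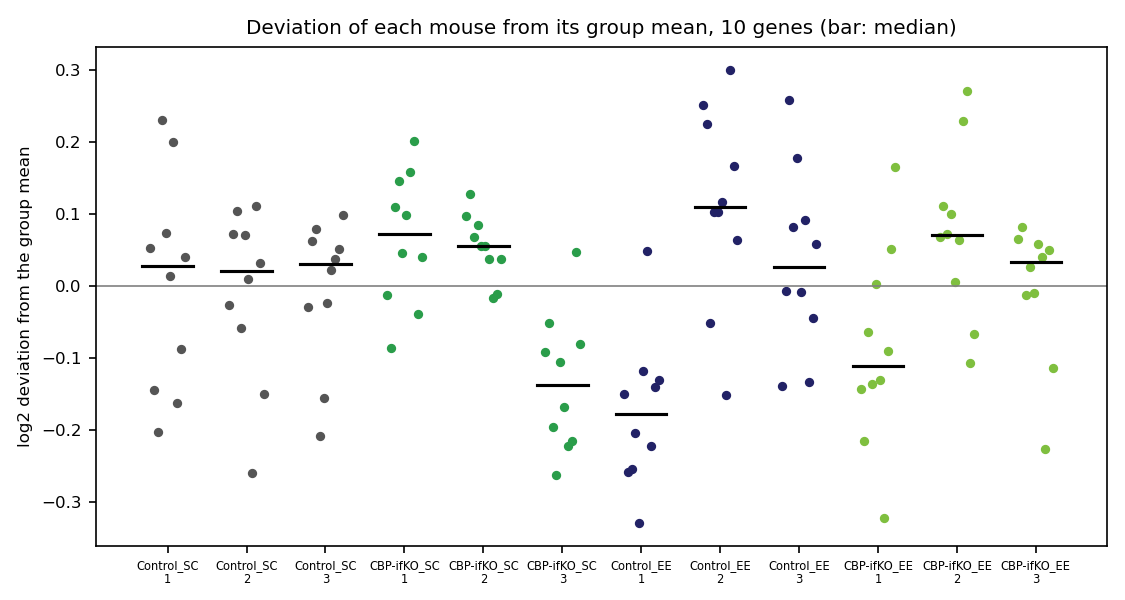
Log2 deviation of each mouse from the mean of its group for the 10 genes, with 1 point per gene and the median as a bar, grouped by genotype and housing. The medians lie between -0.18 (Control_EE mouse 1) and 0.11 (Control_EE mouse 2).

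Over all 12 mice the members differed in how widely they ranged. Calb1 and Rfx3 spanned 1.24-fold and 1.28-fold between the lowest and the highest mouse, and Prox1 1.38-fold. Trpc6 spanned 2.36-fold, Plk5 2.50-fold and Tdo2 3.09-fold. Tdo2 also had the lowest counts, between 136 and 331 per library, so its values carry the largest counting error of the list. The genes with the most counts, Calb1, Rfx3, Stxbp6 and Prox1, included 1 that fell (Stxbp6, in EE) and 3 that did not pass the test in either housing condition.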

How the data were processed

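Total RNA from the hippocampus of 12 individual mice was sequenced as 50 bp single-end reads, with each mouse in 2 runs (24 runs in all). According to the labels and the methods of the study, the authors trimmed reads with Trim Galore 0.6.4, aligned them with STAR 2.6.1 to mm10 (GRCm38), kept alignments of good mapping quality, merged the runs of a mouse and assigned reads to exons of the Ensembl annotation by means of Rsubread. The deposited table holds unnormalized counts for each gene and the length of each gene's exons in bases, which the authors' counting program wrote. Whether counting used strand is not stated. Of the 55471 genes, 55144 were matched to a symbol. Groups came from the labels.

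Deposited counts entered edgeR 4.0.16 (R 4.3.3) unchanged. Low genes were removed by filterByExpr, libraries were scaled by TMM, and groups were compared by the quasi-likelihood F test with Benjamini-Hochberg adjustment over all genes tested and a threshold of 0.05, with no fold threshold. Genotypes were compared within each housing condition in 6 mice, and the averaged genotype difference, the effects of EE, the interaction and the joint test were taken from 1 fit of 12 mice with 4 groups. CPM is the count over the TMM-scaled library, and RPKM is CPM per kilobase of the deposited length. Intervals are 95% intervals of the fit. The procedure was tested on simulated data. A floor of 3 counts was 0.0801 to 0.112 CPM per library, taken over the library total without TMM scaling. It covers counting error only, and no member came near it.

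The text names the 10 members in all comparisons, genes of the second granule cell list past the threshold or with its highest or lowest level per length, Crebbp, Ep300, and marker lists by their counts and sums. The members and lists were chosen with earlier results of these data known. The second list also held 1 gene that is left out of its counts and is not reported here. Alternatives were CBP-ifKO counts divided by 2 (none of their 148570 nonzero counts was odd, against 86334 of 158233 in control libraries), DESeq2 1.42.0, its size factors in edgeR, no filter or a filter of 1 CPM in 3 libraries, the replicate number as a block, the fit of all 12 mice, a threshold of 0.5 on the log2 fold change for the joint test, and leaving out each mouse. Positions came from GRCm38, and promoter windows from RefSeq, which held none for Calb1.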

Additional observations from a re-analysis of the deposited data

How the results depend on the processing

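The member counts stayed within 1.5 times of those reported with the CBP-ifKO counts halved, with other size factors, with DESeq2 and with the filter of 1 CPM in 3 libraries. Without a filter on low counts, 1 member was called for EE in CBP-ifKOs, 1 for the interaction and 3 in the joint test, and over all genes 1512 were called for genotype in SC, 1677 for genotype in EE, 145 and 247 for EE in control mice and in CBP-ifKOs, 110 for the interaction and 409 jointly. The cause was not tested. DESeq2 called 1251 genes for genotype in EE, 15 and 51 for EE in control mice and in CBP-ifKOs, and 92 jointly. The fit of all 12 mice called 1293 for genotype in EE, halved counts 0 for EE in CBP-ifKOs, and the fold threshold left 6 jointly. When 1 mouse was left out, members called ran from 3 to 4 in SC and from 4 to 5 in EE, stayed at 6 for the average and at 0 for EE, interaction and the joint test. All genes called ran from 399 to 1908 for genotype in SC, where each of the 6 mice moved the count by over 1.5 times and the highest count came without mouse 2 of Control_SC. They ran from 285 to 1016 in EE, with the lowest count without mouse 3 of Control_EE, from 0 to 5 for EE in control mice, from 0 to 10 for EE in CBP-ifKOs and from 0 to 16 jointly. The labels give replicate numbers without saying that they pair the mice. Correlations of same-numbered mice were between -0.05 and 0.30, and the means over differently numbered mice were between -0.088 and 0.00058. These values do not settle whether the mice were paired. With the replicate block, 17 genes were called for EE in CBP-ifKOs and 22 jointly, while members called stayed at 4 in SC, 5 in EE and 0 for EE, and Dock10 was past the threshold in EE (-0.27, adjusted p = 0.0321, edgeR's quasi-likelihood test) and averaged (-0.15, adjusted p = 0.0182). Signs turned only in log2 fold changes that were not called. These were Lrrtm4 in EE (-0.0024) and Sipa1l2 averaged (-0.0075) without a filter, and Prox1 averaged with the filter of 1 CPM (9.33e-04). With 1 mouse left out, the genotype difference in SC ran from -0.069 to 0.053 for Dock10, -0.057 to 0.021 for Sipa1l2 and -0.10 to 0.10 for Neurod1. In EE it ran from -0.13 to 0.082 for Prox1, -0.13 to 0.018 for Rfx3, -0.067 to 0.077 for Calb1, -0.046 to 0.11 for Sipa1l2, -0.013 to 0.056 for Lrrtm4 and -0.018 to 0.22 for Ep300, and averaged from -0.043 to 0.064 for Prox1 and -0.034 to 0.044 for Sipa1l2. The change with EE in control mice ran from -0.15 to 0.060 for Prox1, -0.094 to 0.14 for Trpc6, -0.033 to 0.084 for Stxbp6, -0.092 to 0.13 for Plk5 and -0.13 to 0.0046 for Calb1. The interaction ran from -0.19 to 0.027 for Prox1, -0.049 to 0.21 for Tdo2, -0.17 to 0.16 for Glis3, -0.070 to 0.087 for Rfx3 and -0.15 to 0.012 for Calb1.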

Other observations

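Genes of the neurons that receive mossy fibers were read in the same fits. Of 5 mossy cell markers, 2 fell in the SC-housed CBP-ifKOs, Calb2, the calcium-binding protein calretinin, by 0.65 and Ociad2 by 0.36 on the log2 scale, and Ociad2 fell again in EE, by 0.25. Their summed level was between 183 and 211 CPM in Control_SC and between 134 and 153 CPM in CBP-ifKO_SC, and between 194 and 208 CPM in Control_EE and between 153 and 179 CPM in CBP-ifKO_EE. Calb2 is also made by interneurons and by young granule cells. Of 5 CA3 pyramidal markers, 1 fell in SC, the adhesion protein Nectin3, by 0.37, and 0 passed in EE, with sums between 147 and 150 CPM in Control_SC and between 128 and 139 CPM in CBP-ifKO_SC, and between 152 and 163 CPM in Control_EE and between 140.0 and 149.7 CPM in CBP-ifKO_EE, also without overlap. Of 5 CA2 pyramidal markers, Rgs14, a regulator of G-protein signaling that restrains plasticity in CA2, fell by 1.10 in SC and 1.24 in EE. Pcp4, a calmodulin-binding peptide, fell by 0.38 and 0.40. The other CA2 markers, Amigo2, Map3k15 and Cacng5, passed in neither housing condition, with log2 fold changes between -0.21 (Amigo2 in SC) and 0.14 (Map3k15 in EE).

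Genes of newborn granule cells had a sum over 5 markers between 40.7 and 53.6 CPM in the 12 mice. Sox11, a transcription factor of immature neurons, fell by 0.38 in SC, and the other markers tested did not pass in either housing condition. Doublecortin (Dcx), which marks migrating young neurons, changed by -0.01 in SC and 0.11 in EE on the log2 scale, with adjusted p values of 0.973 and 0.614 in edgeR's quasi-likelihood test. Eomes, which marks intermediate progenitors, was listed at 0 in 1 library of CBP-ifKO_SC and had at most 0.386 CPM elsewhere. For EE against SC, 0 of the 5 markers passed in control mice or in CBP-ifKOs. The summed level of 5 activity-regulated genes (Fos, Arc, Egr1, Npas4 and Nr4a1) varied widely between mice of 1 group, from 231 to 620 CPM in Control_SC and from 215 to 599 CPM in CBP-ifKO_EE, and 0 of the 5 passed the test for genotype or for EE.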
